A study of Ursus arctos with 5 samples.

Results

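The zinc finger transcription factor families followed here were the transcripts whose human gene name began with ZNF or ZFP and a digit, with ZBTB, ZSCAN, ZKSCAN, or KLF and a digit, or that were named SP with a single digit. The name alone chose them, with no measured value. They comprised 207 of the 9093 transcripts that carried a gene name in the gastrocnemius of the grizzly bear, a calf muscle, out of 26614 assembled transcripts in all. They stood for 136 of 4873 named genes, of which 106 were ZNF genes, 13 ZBTB, 8 ZFP, 6 KLF and 2 ZSCAN or ZKSCAN genes, with SP3 as the only SP gene.

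Zinc finger proteins of the Cys2-His2 type hold a zinc ion in each finger and read DNA through a row of such fingers. Many ZNF proteins carry a KRAB domain, which recruits the corepressor TRIM28 and chromatin-silencing enzymes, and some carry a SCAN domain, through which they pair. ZBTB proteins carry a BTB domain that pairs the proteins and binds corepressors such as NCOR1 and SIN3A. KLF and SP factors share 3 fingers that bind GC-rich promoter elements, and several KLF genes respond within minutes to hours to hormones, blood flow or growth factors. In skeletal muscle, factors of these families are known to take part in myogenic differentiation, in fuel use and in the response to glucocorticoids. The name prefixes also take in proteins of other kinds, such as the ZFP36 family, whose CCCH fingers bind AU-rich elements of mRNA and bring in the CCR4-NOT deadenylase.

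Biopsies came from 2 bears, Tia and Star, held at a university bear centre. Each bear was biopsied once in October, in the active and fed state, and once in February, in hibernation without food. This gave 4 single-end RNA-seq libraries, 2 for each state and 2 for each bear. According to the labels the animals were 10 years old, while the methods list a subadult and an adult. By the values in the study's own list of transcripts, Tia was the subadult and Star the adult (9072 of 9092 transcripts with the same 4 values, and 0 with the bears exchanged). The sources name no treatment beyond the season and the anaesthesia for the biopsy. The injected dose of tiletamine and zolazepam was lower in hibernation than in the active state, and isoflurane followed. Effects of that dose and of the state therefore cannot be told apart. Levels are in RPKM, a read number corrected for the length of the transcript and the depth of the library. The step between RPKM values gave 44.6 to 54.1 M (mega) aligned reads per library. A read counted in several transcripts may enter this number more than once. Of 10 muscle markers 3 could be read, and these, MYH1, MYH2 and MYH7, stood at 1295 to 7801 RPKM in every library. The table starts at 1 RPKM in each library, so rarer zinc finger transcripts were not analysed here.

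Zinc finger genes lay at low levels in this table. Their median level over the 4 libraries was 3.47 RPKM, against 4.90 RPKM over all named genes, and 70.6% of them lay under 5 RPKM, against 51.0% of all named genes. Only 15 of the 136 reached 10 RPKM, and 2 exceeded 30 RPKM, ZNF672 and KLF4. The median transcript was shorter as well, with 1436.5 bases against 1959. In consequence the reads behind a value were few, with a median of 194 to 299 reads per library and a minimum of 21, and the counting error of a log2 difference had a median of 0.12 in Tia and 0.13 in Star.

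The first question was whether zinc finger genes differed between hibernation and activity. Expressed as the difference in log2(RPKM + 0.5), hibernating minus active, averaged over the bears, the median of the 136 genes was 0.18, against 0.15 over all named genes. The medians in Tia and Star were 0.25 and 0.12 for zinc finger genes and 0.13 and 0.17 for all named genes. By the transcript with the most reads, 69 genes (50.7%) were higher in hibernation in both bears, against 48.7% of all named genes, and 21 (15.4%) were lower in both, against 16.1%. The other 46 differed in opposite directions. Since all named genes were shifted upward on this scale, the split depended on the scaling of the libraries: scaled by the median ratio it was 42 higher and 38 lower, and scaled by the upper quartile 44 and 37. Counted against the median of all named genes in each bear, 41 genes (30.1%) were above it in both bears and 40 (29.4%) below it in both, against 31.0% of all named genes each way. Zinc finger genes thus divided between the directions in shares near those of the whole table.

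The same held where the states did not overlap. Both hibernating values exceeded both active values for 48 genes (35.3%, against 35.8% of all named genes), and both lay below them for 9 genes (6.62%, against 8.11%). These 9 were KLF4, KLF9, ZNF83, ZNF282, ZNF398, ZNF503-AS2, ZNF524, ZNF586 and ZNF688. On the log2(RPKM + 0.5) scale, no gene was 2-fold higher, or 2-fold lower, in each of the bears, against 0.41% of all named genes higher and 0.308% lower. ZNF503 fell just short of it through the pseudocount of 0.5, since its RPKM as deposited was over 2-fold higher in each bear. At 1.5-fold, 6 genes (4.41%) were higher in both bears, ZNF696, ZNF503, ZNF717, ZNF7, ZNF318 and ZBTB2, against 3.84% of all named genes, and none was lower, against 1.01%.

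**Figure D1:**
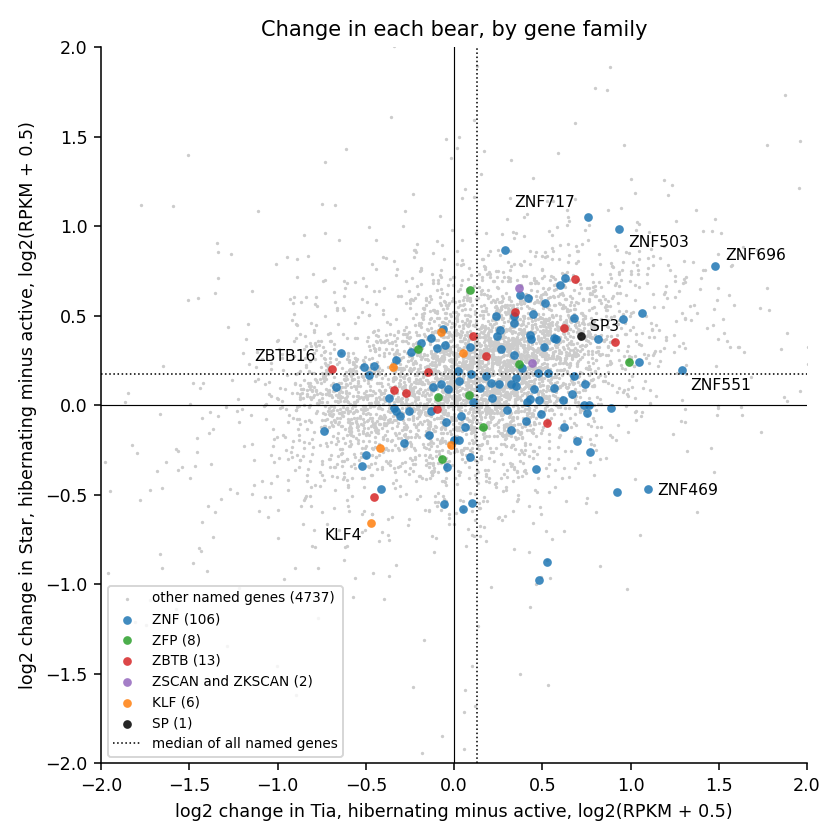
Log2 change between hibernating and active libraries in Tia (horizontal axis) and Star (vertical axis), with 1 point per gene, coloured by family over the 4737 other named genes in grey, of which 52 lie beyond the axes. Dotted lines are the medians of all named genes; the zinc finger genes spread over the same area as the grey points, with ZNF696, ZNF503 and ZNF717 far to the upper right and KLF4 to the lower left.

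None of the 207 transcripts passed limma's test at a Benjamini-Hochberg adjusted p under 0.05 (smallest adjusted p = 0.541), and neither did any of the 9093 named transcripts (0.0%). At an unadjusted p under 0.05, 15 zinc finger transcripts (7.25%) were higher in hibernation, against 7.19% of named transcripts, and 0 were lower, against 1.89%. A score after NOISeq compares the states of a transcript with Tia and Star sampled in the same state, and gives the fraction of such contrasts that it matched or exceeded in both ratio and RPKM difference. It reached 0.8 for 2 transcripts (0.966%), both higher in hibernation, against 2.1% of named transcripts higher and 1.51% lower. For a single gene, the smallest two-sided p of an exact permutation test with 2 libraries per state is 0.333. The values below are therefore descriptions of 2 bears.

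The families had different medians but wide and overlapping ranges. The ZNF genes had a median log2 difference of 0.21, with 55 of 106 higher and 15 lower in both bears, and ran from -0.44 to 1.13. The ZBTB genes had a median of 0.22 (6 of 13 higher, 2 lower) and ran from -0.48 to 0.70. Among these 6 was ZBTB8OS, at 0.43, which shares the name prefix but was listed as not a DNA-binding factor. The ZFP genes had a median of 0.06 (4 of 8 higher, 1 lower). The KLF genes had a median of -0.09, with 1 of 6 higher and 3 lower in both bears. Over all named genes, 48.7% were higher and 16.1% lower in both bears. A difference between families was not tested.

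**Figure D2:**
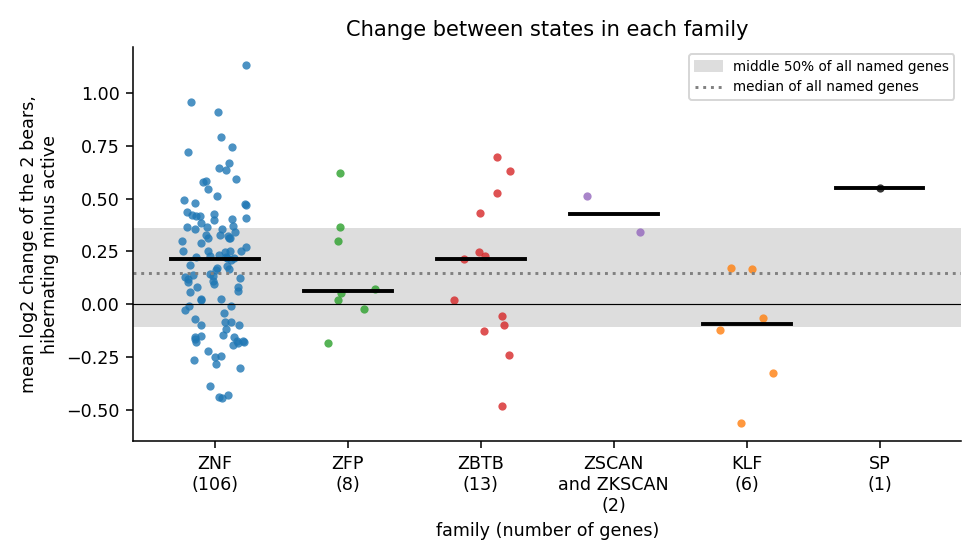
Mean log2 change of both bears for every gene (points) by family, with the family median as a black bar. The grey band holds the middle 50% of all named genes and the dotted line their median; the medians of ZNF and ZBTB lie slightly above that line and that of KLF below 0.

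KLF4 was the most abundant KLF gene and the one furthest down in hibernation. It is a factor of vascular endothelium and smooth muscle that also serves in reprogramming cells to pluripotency. Its transcript with the most reads (isotig46118) stood at 61.1 RPKM in active and 43.9 RPKM in hibernating Tia and at 94.3 and 59.7 RPKM in Star. The lower state was hibernation in each bear, and the active values lay above both hibernating ones. The log2 difference was -0.56 ± 0.30 (SE, limma, n = 2 per state, adjusted p = 0.611). This transcript measured 290 bases only, while the longer KLF4 transcripts of 2809 and 2908 bases lay at 1.27 to 5.60 RPKM. They were lower in hibernation too, from 4.34 to 1.38 RPKM in Tia and from 5.60 to 3.84 RPKM in Star for isotig15798.

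KLF9, a factor induced by glucocorticoid and thyroid hormone, showed the same direction. Its level was 22.4 RPKM in active and 16.6 RPKM in hibernating Tia, and 19.0 and 16.1 RPKM in Star. Both hibernating values were below both active ones, and the log2 difference was -0.33 ± 0.21 (SE, limma, adjusted p = 0.652). Its shorter transcript was lower in both bears as well, at 4.97 against 6.17 RPKM in Tia and 5.03 against 5.41 RPKM in Star.

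The other KLF genes differed little or in opposite directions. KLF6, an injury-response factor found in many tissues, was at 10.2 RPKM in active and 7.90 RPKM in hibernating Tia but at 7.95 and 9.29 RPKM in Star. KLF5, which acts in smooth muscle and in muscle regeneration, was at 4.82 and 4.55 RPKM in Tia and at 4.06 and 5.56 RPKM in Star. KLF2, a flow-induced factor of endothelium, was at 2.80 RPKM in hibernating and 2.69 RPKM in active Tia and at 4.85 and 3.86 RPKM in Star. In Tia its log2 difference of 0.05 lay within the counting error of 0.19. Its second transcript was at 3.71 against 3.85 RPKM in Tia and 6.76 against 5.22 RPKM in Star. KLF12, a repressor, was at 2.87 against 2.91 RPKM in Tia and at 1.28 against 1.58 RPKM in Star. The scores of these 4 genes ran up to 0.27 only, and the bears differed in direction for KLF5 and KLF6.

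SP3, a widely expressed factor that shares GC-box sites with SP1, was higher in hibernation in each bear. It stood at 11.4 RPKM in hibernating and 6.74 RPKM in active Tia, and at 8.78 and 6.61 RPKM in Star. The active values of the bears nearly coincided and both hibernating values lay above them. With 1067 to 2062 reads behind each value, the log2 difference was 0.55 ± 0.23 (SE, limma, adjusted p = 0.564).

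**Figure D3:**
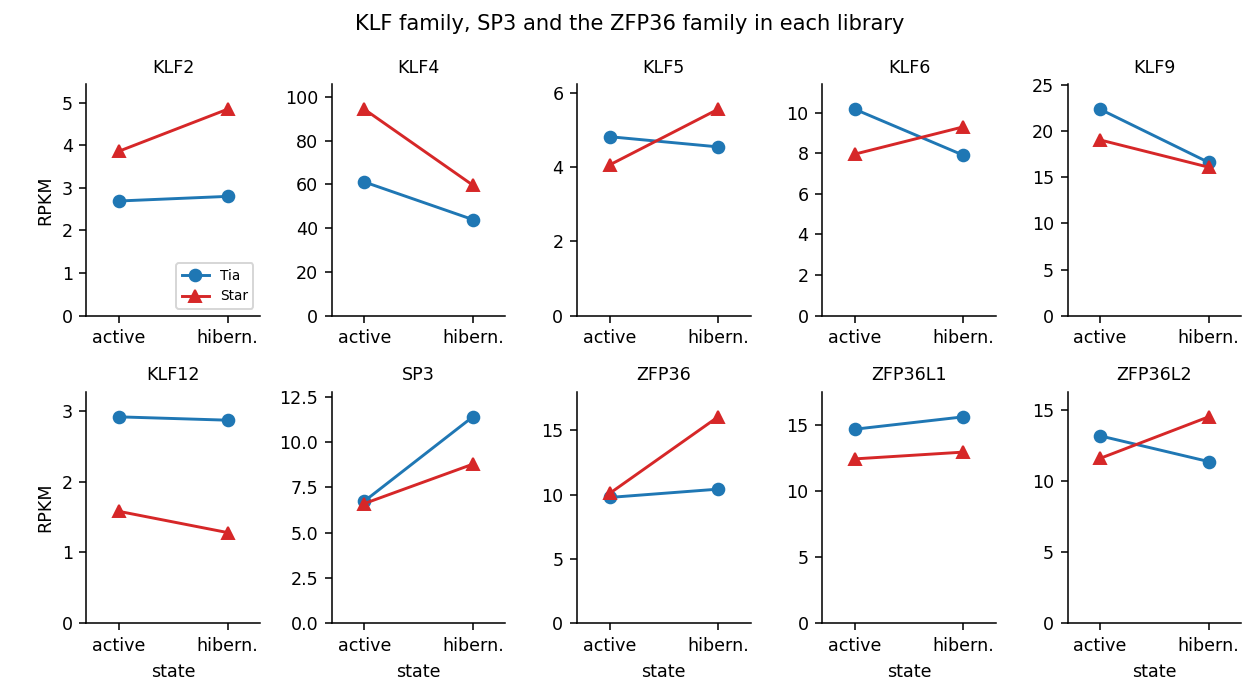
RPKM of the KLF genes, SP3 and the ZFP36 family in the active and hibernating library of Tia (circles) and Star (triangles), 1 gene per panel with its own axis from 0. Both lines descend for KLF4 and KLF9 and ascend for SP3, while the lines cross for KLF5, KLF6 and ZFP36L2.

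ZNF696 and ZNF503 were the only zinc finger genes with a score of at least 0.8. ZNF696, a factor of little-known function, was at 9.12 RPKM in hibernating and 2.95 RPKM in active Tia (isotig28365), and at 5.06 and 2.74 RPKM in Star. Its active values were close together and its hibernating values were both higher, more so in Tia. The log2 difference was 1.13 ± 0.32 (SE, limma, adjusted p = 0.541) and the score 0.858. ZNF503, a transcriptional repressor of the NET family that acts in limb and brain development, was at 6.73 RPKM in hibernating and 3.28 RPKM in active Tia (isotig22614), and at 8.26 and 3.93 RPKM in Star. The bears differed between states by nearly the same factor, with log2 differences of 0.93 and 0.98 and a mean of 0.96 ± 0.24 (SE, limma, adjusted p = 0.541).

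ZNF503-AS2, an RNA named as the antisense partner of ZNF503, went the other way. It was at 3.35 RPKM in hibernating and 5.02 RPKM in active Tia, and at 4.23 and 5.48 RPKM in Star, with a log2 difference of -0.43 ± 0.23 (SE, limma, adjusted p = 0.616). Whether reads were counted by strand is not given in the sources used here. Reads from a stretch that ZNF503 and its antisense RNA share could then not be told apart. ZNF703 is the close relative of ZNF503 and a corepressor gene amplified in breast cancer. By its transcript with the most reads it was at 7.95 RPKM in hibernating and 6.19 RPKM in active Tia. In Star it was at 10.9 and 7.55 RPKM, and the log2 difference was 0.42. Its other transcripts split, with mean log2 differences of 0.70 for isotig39733 and -0.50 for isotig38136. The latter differed by -1.1 in Tia and 0.11 in Star.

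KRAB genes formed the largest group, with 58 of the 136. Their median log2 difference was 0.20, at 0.28 in Tia and 0.12 in Star, against 0.13 and 0.17 over all named genes. The KRAB genes ran from -0.39 to 0.91. In both bears 32 of them (55.2%) were higher and 7 (12.1%) lower, against 48.7% and 16.1% of all named genes. Counted against the median of all named genes, 17 (29.3%) lay above it in both bears and 15 (25.9%) below, against 31.0% each way. None passed the adjusted test, and 6 of them, ZNF7, ZNF26, ZNF175, ZNF192, ZNF317 and ZNF717, had an unadjusted p under 0.05 by the transcript with the most reads, all higher in hibernation (10.3%, against 7.84% of named genes higher at that threshold). Outside the KRAB list, 37 of 78 zinc finger genes (47.4%) were higher and 14 (17.9%) lower in both bears. KRAB genes were of low abundance, the highest at a mean of 10.9 RPKM.

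ZNF717 was the KRAB gene with the highest difference. It was at 4.78 RPKM in hibernating and 2.61 RPKM in active Tia and at 4.96 and 2.13 RPKM in Star, and both hibernating values exceeded both active ones. The log2 difference was 0.91 ± 0.22 (SE, limma, adjusted p = 0.541). ZNF7 was at 8.23 against 5.16 RPKM in Tia and 7.50 against 4.38 RPKM in Star, and its second transcript was also higher in hibernation, at 8.68 against 5.74 RPKM and 5.54 against 4.17 RPKM. Both KRAB genes lay above their active values in each bear by more than 2 counting errors. ZNF317 was at 4.39 against 2.01 RPKM in Tia and 3.63 against 2.46 RPKM in Star, a log2 difference of 0.72. Its second transcript was higher in Tia only, at 3.91 against 1.66 RPKM, with 2.922 against 2.928 RPKM in Star. ZNF551 had its difference mainly in Tia, at 6.06 against 2.18 RPKM, with 6.08 against 5.24 RPKM in Star.

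ZNF192, now named ZKSCAN8, has both a SCAN and a KRAB domain. It was at 3.23 against 1.28 RPKM in Tia and 2.14 against 1.35 RPKM in Star, a log2 difference of 0.79 ± 0.24 (SE, limma, adjusted p = 0.541), with 42 to 113 reads per value. Of the 9 genes on the SCAN list, 6 (66.7%) were higher and 0 lower in both bears, with a median of 0.30. Over all named genes the shares were 48.7% and 16.1%. ZKSCAN4 was at 5.02 against 3.77 RPKM in Tia and 4.04 against 2.39 RPKM in Star by the transcript with the most reads, but its other transcripts were lower in hibernation, with mean log2 differences of -0.14 and -0.54.

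Of the 106 ZNF genes, 15 (14.2%) were lower in hibernation in both bears, against 16.1% of all named genes. Counted against the median of all named genes, 30 ZNF genes lay below it in both bears and 31 above. ZNF524 was at 5.71 RPKM in hibernating and 7.80 RPKM in active Tia and at 7.69 and 10.8 RPKM in Star, a log2 difference of -0.44 ± 0.27 (SE, limma, adjusted p = 0.642). Its second transcript, of 480 bases, was lower in Star only, at 8.27 against 13.6 RPKM, with 8.07 against 7.535 RPKM in Tia. ZNF83 was at 1.16 against 2.26 RPKM in Tia and at 1.92 against 2.18 RPKM in Star, near the lower bound of the table. ZNF398, a KRAB gene, was at 2.51 against 3.76 RPKM in Tia and 3.16 against 3.94 RPKM in Star. ZNF512 was lower mainly in Star, at 1.07 against 1.80 RPKM, with 2.51 against 2.63 RPKM in Tia. By the transcript with the most reads, both hibernating values lay below both active ones for the first 3 genes, while those of ZNF512 overlapped.

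**Figure D4:**
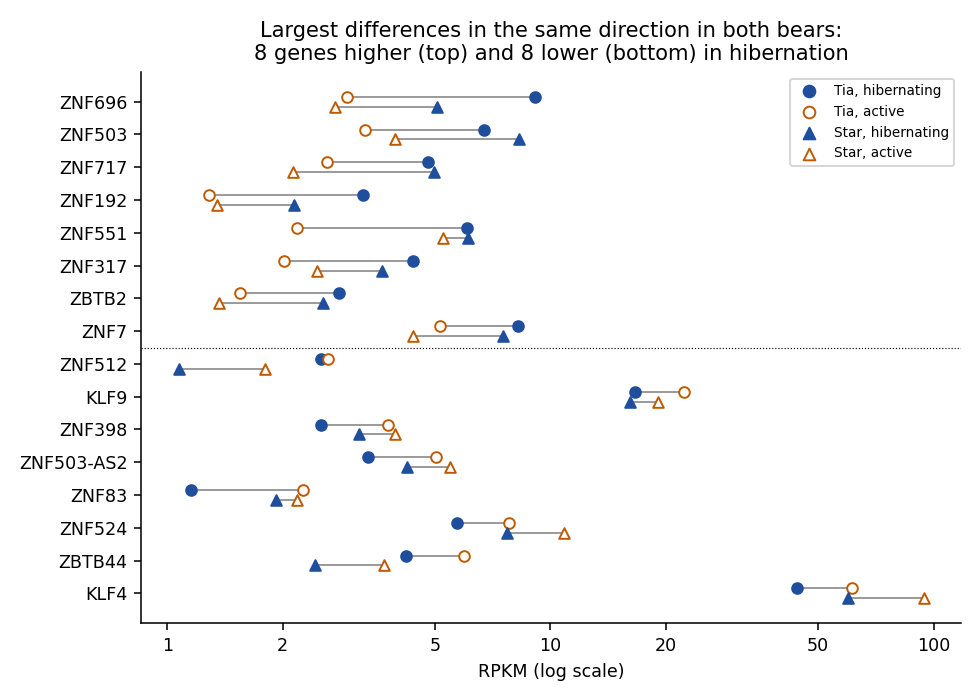
RPKM on a log scale in each library for the 8 genes furthest up and the 8 furthest down in hibernation among those that differed in the same direction in both bears. Filled symbols are hibernating and open symbols active libraries, circles are Tia and triangles Star; the filled symbol lies right of the open one in each bear for the upper 8 genes and left of it for the lower 8.

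Apart from KLF4, the 5 most abundant zinc finger genes were not among those with the largest differences. ZNF672, a factor of little-known function with the same mean level as KLF4 (64.8 RPKM each), was at 62.9 RPKM in hibernating and 37.5 RPKM in active Tia and at 82.5 and 76.0 RPKM in Star. ZNF358 was at 27.0 against 16.5 RPKM in Tia and 26.3 against 30.4 RPKM in Star. ZNF276 was lower in hibernation in both bears, at 14.8 against 18.1 RPKM in Tia and 23.2 against 26.9 RPKM in Star. Star was above Tia in both states for ZNF672 and ZNF276. Genes with a mean of at least 10 RPKM had a median log2 difference of 0.07 (15 genes), against 0.17 over all named genes of that level, and those under 3 RPKM one of 0.18 (56 genes), against 0.06. At that low level the medians were apart in Tia, at 0.23 against -0.00086, but not in Star, at 0.12 against 0.13.

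ZBTB2 and ZBTB44 had the largest differences among the ZBTB genes. ZBTB2, a BTB repressor, was at 2.80 against 1.55 RPKM in Tia and at 2.55 against 1.37 RPKM in Star, with 27 to 62 reads behind each value. Its log2 difference was 0.69 in Tia and 0.71 in Star, with a mean of 0.70 ± 0.19 (SE, limma, adjusted p = 0.541). ZBTB44 was the furthest down, at 4.20 against 5.95 RPKM in Tia and 2.43 against 3.68 RPKM in Star, and both of its transcripts were lower in both bears. Its states overlapped across the bears, since hibernating Tia was above active Star, and the log2 difference was -0.48 ± 0.35 (SE, limma, adjusted p = 0.681).

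The ZBTB genes with known roles in muscle or growth differed less. ZBTB16, also called PLZF, is a glucocorticoid-induced factor that stands among the 5 most abundant zinc finger genes. It was at 18.3 RPKM in hibernating and 29.8 RPKM in active Tia but at 29.6 and 25.6 RPKM in Star, so that the bears went in opposite directions. ZBTB17, or MIZ1, which represses genes together with MYC, was at 6.41 against 5.60 RPKM in Tia and 5.99 against 4.86 RPKM in Star. ZBTB7A, a repressor of fetal globin genes, was at 13.0 against 8.85 RPKM in Tia and 12.1 against 12.9 RPKM in Star. ZNF238, now named ZBTB18, is a repressor that promotes myogenesis. It was at 9.70 against 5.51 RPKM in Tia and at 8.92 against 8.90 RPKM in Star. On the log2 scale its 5 transcripts differed by 0.73 to 0.77 in Tia, but by -0.25 to 0.14 in Star. On the BTB list of 14 genes, 7 were higher and 2 lower in both bears, against 48.7% and 16.1% of all named genes. The median of this list was 0.22, against 0.15 over all named genes.

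ZFP106, an RNA-binding protein whose loss in mice leads to degeneration of motor neurons and muscle, was assembled into 20 transcripts of 5544 to 9936 bases. All 20 were lower in hibernation in both bears. Their log2 differences were small in Tia, from -0.07 to -0.02, and ran from -0.30 to -0.14 in Star. The transcript with the most reads was at 6.48 against 6.82 RPKM in Tia and 4.10 against 5.16 RPKM in Star. Since these transcripts overlap in sequence and share reads, they count as 1 gene.

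The ZFP36 family, which destabilises mRNA of cytokines and immediate early genes, did not differ in a shared direction. ZFP36, or tristetraprolin, was at 16.0 RPKM in hibernating and 10.1 RPKM in active Star, while the values in Tia were 10.4 and 9.77 RPKM. ZFP36L1 was at 15.6 against 14.7 RPKM in Tia and 13.0 against 12.5 RPKM in Star. ZFP36L2 was at 11.4 against 13.2 RPKM in Tia and 14.5 against 11.6 RPKM in Star. Scaling the libraries by the median ratio or the upper quartile turned the mean differences of ZFP36L1 and ZFP36L2, 0.07 and 0.05, below 0. Of 12 CCR4-NOT genes, 6 could be read, and none passed the adjusted test. In both bears 4 (66.7%) were higher and 0 lower, against 48.7% and 16.1% of all named genes (median log2 difference 0.28).

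Tia and Star did not differ alike between states. Over the 136 genes the Pearson correlation of their log2 differences was 0.27, given as a description across genes that share 4 libraries, and over all named genes it was 0.32. The SD of the differences was 0.45 in Tia and 0.35 in Star, against 0.59 and 0.38 over all named genes. The wider spread in Tia was thus not particular to zinc finger genes. Of the 136 genes, 81 differed more in Tia, and the share over all named genes was not counted. Beyond 2 counting errors in both bears, 30 genes (22.1%) were higher and 7 (5.15%) lower in hibernation, against 29.2% and 6.05% of all named genes. The 7 were KLF4, KLF9, ZBTB44, ZNF276, ZNF398, ZNF503-AS2 and ZNF524.

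Some genes went in opposite directions by more than 2 counting errors in each bear. ZNF354C, ZNF358, ZNF469, ZNF652 and ZNF655 were higher in hibernating Tia and lower in hibernating Star (3.68% of zinc finger genes, against 3.73% of named genes). The reverse held for 8 genes, among them KLF6, ZBTB16, ZFP36L2 and ZNF330 (5.88%, against 7.8%). ZNF469, whose loss causes brittle cornea syndrome, is linked to fibrillar collagen. By its transcript with the most reads it was at 10.1 RPKM in hibernating and 4.44 RPKM in active Tia but at 4.35 and 6.20 RPKM in Star. Its other transcripts did not share this: isotig13447 and isotig34092 were higher in both bears, and isotig15534 differed by 0.28 in Tia and -0.07 in Star. ZNF330, a nucleolar protein with 5 transcripts, was at 3.68 against 4.75 RPKM in Tia and at 3.39 against 2.77 RPKM in Star. ZNF609, a partner of the cohesin loader NIPBL, was slightly higher in both, at 3.05 against 2.34 RPKM in Tia and 2.27 against 2.06 RPKM in Star.

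A gene was often assembled in more than 1 piece, and the pieces did not always go together. Of the 136 genes, 103 had 1 transcript and 33 had several. In 10 of the 33 (30.3%) the transcripts differed in the sign of the mean difference, against 22.1% of named genes with several transcripts. In 5 (15.2%) every transcript was higher in both bears, against 36.2%, and in 5 (15.2%) every transcript was lower in both, against 9.64%. The first 5 were ZNF7, ZNF12, ZNF142, ZNF397 and ZNF512B, and the second 5 were KLF4, KLF9, ZBTB44, ZFP106 and ZNF398. Both ZNF12 transcripts, at 0.08 and 0.12, lay under the median of all named genes of 0.15.

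ZNF318, a nuclear protein that binds the androgen receptor, showed such a split. Its longest transcript, of 3572 bases, was at 3.04 against 1.84 RPKM in Tia and 3.96 against 2.29 RPKM in Star. The next, of 2557 bases, was at 2.62 against 1.32 RPKM in Tia and 2.28 against 1.48 RPKM in Star. Both were higher in hibernation in both bears, with a mean log2 difference of 0.64 each. The 3 shorter transcripts, of 413 to 947 bases, had mean log2 differences of -0.43 to -0.34. ZBTB11 split likewise, with -0.13 for its transcript of 2513 bases and 0.35 for that of 896 bases. ZBTB11 was at 2.42 against 3.20 RPKM in Tia and 2.19 against 2.03 RPKM in Star by the former. ZNF331, with 5 transcripts, was at 7.05 against 5.80 RPKM in Tia and 7.74 against 6.12 RPKM in Star by the transcript with the most reads, and the other 4 lay between -0.05 and 0.15 on the log2 scale.

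**Figure D5:**
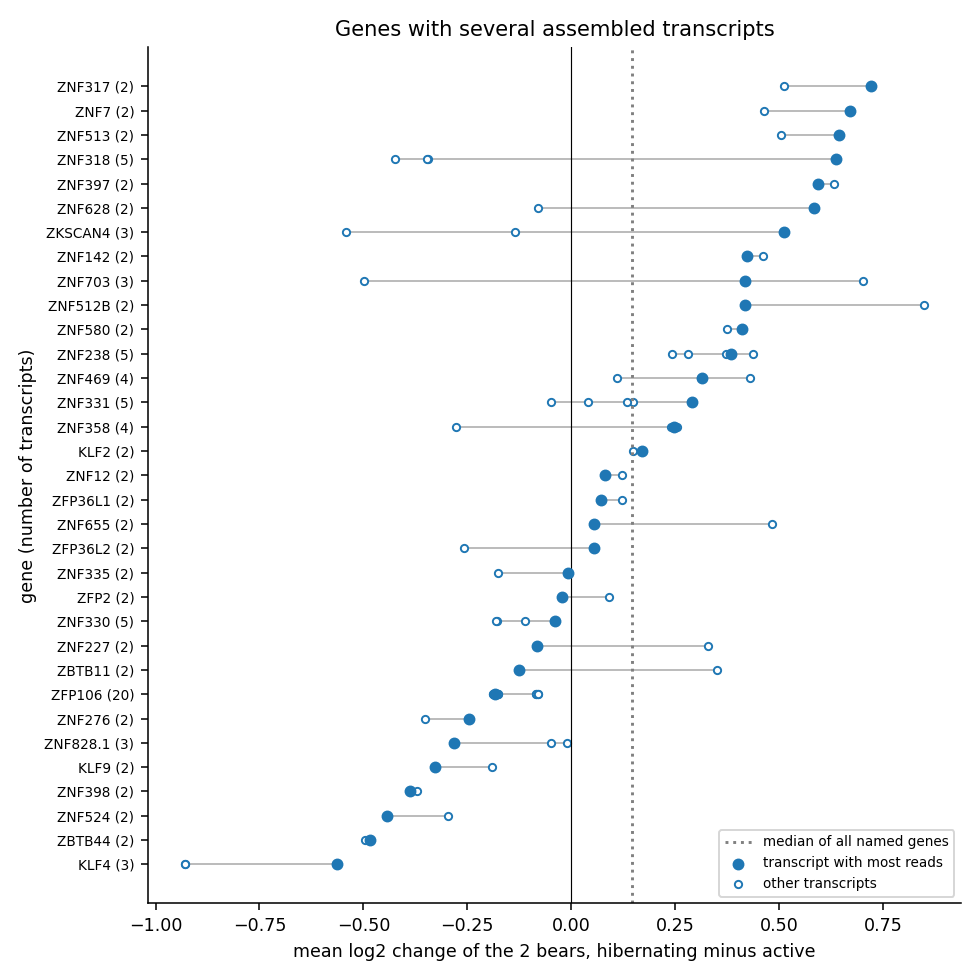
Mean log2 change of both bears for each assembled transcript of the 33 zinc finger genes with several transcripts, ordered by the transcript with the most reads (filled). Open circles are the other transcripts and the dotted line is the median of all named genes; transcripts of ZNF318, ZKSCAN4 and ZNF703 lie on both sides of 0, while all 20 of ZFP106 and all 3 of KLF4 lie below 0.

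Names of close paralogs were uncertain, since transcripts were named by their best human match and zinc fingers resemble each other between genes. Consecutively numbered transcripts of the assembly were named KLF6 and KLF5, ZNF354C and ZNF879, and ZNF132, ZNF286A and ZNF93, as well as ZNF167 and ZNF551, ZNF32 and ZFP2, and ZKSCAN4 and ZFP3. ZNF286A and ZNF93 had nearly the same values, at 6.34 and 6.14 RPKM in hibernating Tia, 4.78 and 4.47 RPKM in active Tia, 6.26 and 5.97 RPKM in hibernating Star, and 3.90 and 3.76 RPKM in active Star. The sources used here do not say where a read matching more than 1 of them was counted. The ZFP106 transcripts isotig06300 and isotig06297 had the same derived read numbers in every library. These were 3181 in hibernating and 3515 in active Tia, and 2176 and 2257 in Star. For ZFP106 this points to shared reads counted in each transcript. Genes with consecutive numbers may therefore not be separate measurements.

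Partners and neighbours of the families were described from lists of textbook genes. Of 19 corepressors and other partners of KRAB and BTB factors 10 could be read, 5 higher and 1 lower in both bears, with a median log2 difference of 0.12. SIN3A was at 8.20 against 4.27 RPKM in Tia and 7.46 against 4.997 RPKM in Star, while NCOR1 was at 6.13 against 5.75 RPKM and 6.40 against 5.17 RPKM. Of 18 genes on a glucocorticoid response list 10 could be read, among them KLF9 and ZBTB16. In both bears 6 (60.0%) were lower and 1 (10.0%), NR3C1, was higher. Their median was -0.41, at -0.68 in Tia and -0.13 in Star, and PDK4 differed by -3.83 in Tia and 0.13 in Star. Of 30 immediate early genes 11 could be read, with 3 higher and 4 lower in both bears and a median of 0.03. Over all named genes, 48.7% were higher and 16.1% lower in both bears. None of the genes on these lists passed limma's adjusted test.

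The mix of cells in the biopsies was read from markers. Of 12 endothelial markers 5 could be read and 4 of them (80.0%) were higher in hibernation in both bears, against 48.7% of all named genes. Their summed level was 34.9 and 28.7 RPKM in the hibernating libraries of Tia and Star and 31.8 and 19.3 RPKM in the active ones. Of 10 fat cell markers 4 could be read, at a sum of 493 RPKM in active Tia and 112 to 135 RPKM in the other libraries. In active Tia, SCD, LPL and FASN stood at 189, 120 and 113 RPKM, and PLIN4 at 71.2 RPKM. PLIN4 did not share the high value, at 62.3 RPKM in hibernating Tia and 105 against 76.8 RPKM in Star. Of 10 fibroblast markers 4 could be read, at a sum of 337 RPKM in active Tia and 160 to 277 RPKM in the other libraries. The high sum came from COL1A1, at 193 RPKM in active Tia and 6.79 to 11.0 RPKM elsewhere, while COL1A2 and COL3A1 were higher in hibernation in both bears and FBN1 lower. Of 9 immune markers only CD68 could be read, at 3.28 to 7.12 RPKM. The 6 blood markers were not analysed here. The part of these cells in the values above, KLF2, KLF4 and ZNF469 included, was not tested, and in bulk muscle fewer cells of a type and less RNA per cell cannot be told apart.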

How the data were processed

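The authors isolated poly(A) RNA from gastrocnemius biopsies, assembled transcripts de novo (Newbler 2.3, SOAPdenovo), named them by BLAST against human proteins of Ensembl 66 and aligned single-end reads with SOAP2, allowing 2 mismatches. The deposited values are RPKM, 1 column per bear and month. Whether the cDNA of these libraries was normalised by nuclease, and how reads that fit several transcripts were counted, is not stated in the sources used here. The values of ZFP106 point to a count in each transcript. Pooled and paired-end libraries were not analysed here.

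Hibernating and active libraries (2 each) were compared on log2(RPKM + 0.5) by limma 3.58.1 (trended prior, R 4.3.3), with Benjamini-Hochberg adjustment over 9093 named transcripts. A score was written after the description of NOISeq, with 53228 differences between bears within a state as noise. P-values measure the spread between 2 bears. Fold changes refer to log2(RPKM + 0.5), which understates those of low genes. Each gene was counted by its transcript of highest mean RPKM times length, the one of most reads. The libraries are paired by animal, and the deviations of the bears in hibernation and activity had a Pearson r of 0.36 over named transcripts. Multiplied by length, RPKM came out as whole steps for 95.99% to 96.8% of low values (tolerance 0.15), which gave the depth; intervals from it cover counting error only. The test and the score were tested on simulated data. Of the 136 gene names, 99 matched a RefSeq symbol of the brown bear assembly UrsArc2.0, which served for names only. Further steps used pandas 2.3.3 and numpy 2.4.6 (Python 3.11.15).

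Named genes were all KLF, SP and ZFP36-family genes, those with a score of at least 0.8, the 8 furthest up and down among genes that differed in the same direction in both bears, the 5 most abundant, 8 with known roles, and the gene of each family with most transcripts. ZNF354C, ZNF652, ZNF655, genes listed in counts of at most 9, and the paralogs with consecutive numbers were named after their values were seen. Members, lists, tests and alternatives were chosen with earlier results of these data known. Alternatives covered the pseudocount, scaling, an RPKM minimum, the prior, the bear as a block, the choice of transcript, thresholds and each bear left out.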

Additional observations from a re-analysis of the deposited data

How the results depend on the processing

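No fit gave a zinc finger transcript with an adjusted p under 0.05: the smallest adjusted p was 0.34 with the bear as a replicate block, and 0.395 to 0.697 in the other 7 alternative fits. With limma the count at an unadjusted p under 0.05 was 15 without the block, 22 with it and 4 to 15 otherwise (4 of 66 transcripts with a mean of at least 5 RPKM). The block thus changed no call at an adjusted p under 0.05. The share of all named transcripts at an unadjusted p under 0.05 was taken for the main fit only. Scaling mattered most: the median of the 136 genes was 0.037 under the median ratio and 0.049 under the upper quartile, genes higher in both bears numbered 42 and 44, and genes lower in both 38 and 37. Median-ratio scaling shifted the log2 differences by -0.12 in Tia and -0.18 in Star, and upper-quartile scaling by -0.13 and -0.14. Of the 40 genes with a mean of at least 5 RPKM, 23 were higher and 6 lower in both bears. The split of all named genes at that level was not counted. Their median log2 difference was 0.21 at 5 to 10 RPKM and 0.17 from 10 RPKM. With that minimum, 1 transcript reached the score of 0.8, and without it none reached 0.9 (0 transcripts). At 1.5-fold, 6 genes were higher in each bear, and with a pseudocount of 0.1, 1 gene differed 2-fold. With either bear left out, the count of 2-fold genes was 1 to 5 and the median 0.12 to 0.25, as values with no test.

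Of 461 values of the 40 genes named by the rule under an alternative, 17 changed sign, in 11 genes. ZFP36L1 became -0.090 and -0.077, and ZFP36L2 -0.107 and -0.094, under these 2 scalings. As a mean over its transcripts ZFP36L2 was -0.10, ZBTB11 0.11 and ZKSCAN4 -0.055, and ZKSCAN4 was -0.14 by its longest transcript. With a bear left out, KLF5 ran from -0.076 to 0.41, KLF6 from -0.34 to 0.21, ZBTB11 from -0.34 to 0.087, ZBTB16 from -0.69 to 0.21, ZBTB7A from -0.098 to 0.53, ZFP36L2 from -0.20 to 0.31, ZNF330 from -0.33 to 0.25, ZNF358 from -0.20 to 0.70 and ZNF469 from -0.47 to 1.10. The depth gave a median counting error of 0.12 in Tia and 0.13 in Star on the log2 scale.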
